A study of Mus musculus with 24 samples.

Results

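The genes described here encode nuclear subunits of the mitochondrial respiratory chain and of ATP synthase. They were taken by name from the probe sets of a mouse array: those with a single annotated symbol that starts with Nduf, Uqcr, Cox4, Cox5, Cox6, Cox7, Cox8 or Atp5, or is Cyc1 or Cycs. Cox6a1, Cox6a2, Cox7a1, Cox7a2, Cox8a and Cox8b were left out. The rule uses names and no measured value, though it was set with earlier results of these data known. It gave 90 of 12488 probe sets and 63 of 8252 genes. Of the 63 genes, 59 passed a filter on low signal: 27 of 29 for complex I, 2 of 2 complex I assembly factors, 8 of 8 for complex III, cytochrome c, 8 of 9 for complex IV and 13 of 14 for ATP synthase. Atp5j2, Cox5a, Ndufa12 and Ndufs4 did not pass and have no test.

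The arrays were Affymetrix U74Av2 chips hybridised with RNA from mouse fat cells grown in primary culture. Cells from brown or white fat were collected after 4 days, when they are labelled as not yet differentiated, or after 7 days, labelled as differentiated. The study compares pre- and mature adipocytes of both kinds, on 10 arrays of brown cells (5 on each day) and 14 of white cells (8 at day 4 and 6 at day 7), named here by group and by the number in their label. Strain, genotype, age, sex, depot and pooling were not given in the sources used here, nor was whether arrays of a group came from separate cultures, so p-values measure only how far these arrays spread, and that spread may be technical. All brown arrays carry lower numbers than all white arrays, so cell type and any effect of array order cannot be told apart.

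Complex I takes electrons from NADH, complex III passes them from ubiquinone to cytochrome c, and complex IV hands them to oxygen. All of these steps pump protons or help to build the proton gradient across the inner membrane, which ATP synthase (complex V) uses to make ATP. Brown fat is packed with mitochondria and uses its uncoupling protein Ucp1 to let protons flow back without ATP being made, so that the energy leaves as heat. White fat stores lipid and holds fewer mitochondria. In rodent brown fat the content of ATP synthase is known to be low beside that of the respiratory chain, and the c subunit gene Atp5g1 has been tied to this.

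Signals on the 24 arrays were of similar range, with medians from 41.94 to 58.98. Pairs of arrays within a group correlated at 0.89 to 0.96 in log2 signal over the 8397 probe sets tested. The labelled cell types were borne out by Zic1, Lhx8 and Cidea, all higher in brown cells on both days, and in part by the 6 white fat markers, of which 5 at day 4 and 3 at day 7 were higher in white cells; Tcf21, Hoxc9 and Wt1 were so on both days. Zic1 lay under the signal floor on every white array. Ucp1 did not pass the filter: its brighter probe set ran from 17.4 to 125 at brown day 7 and from 4.5 to 21.3 at white day 7. Adipocyte markers rose with time, 3 of 7 in brown and 5 of 7 in white cells, where 6.48% and 9.04% of all genes rose. Their summed signal was 8845 to 13970 at brown day 4 and 13830 to 16530 at brown day 7. In white cells it was 6308 to 11550 at day 4 and 13080 to 17910 at day 7, so these markers were present at day 4 too. Signals of other cell types also differed. The summed signal of 17 striated muscle genes was 2306 to 3554 at brown day 4, 1679 to 2242 at brown day 7, 739 to 1188 at white day 4 and 896 to 1470 at white day 7, with Myf5 under the floor on all arrays. That of 7 endothelial genes was 480 to 681 and 729 to 1154 in brown cells and at most 397 in white cells, and that of 10 macrophage genes was 468 to 749 in brown and 601.5 to 1624 in white cells. The 3′ over 5′ signal ratio of the Gapdh control probe sets, which grows as RNA breaks down, was 0.884 ± 0.083, 0.889 ± 0.038 and 0.943 ± 0.096 in brown cells at day 4, in brown cells at day 7 and at white day 4, and 1.36 ± 0.20 at white day 7 (SD; n = 5, 5, 8 and 6).

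Respiratory chain genes were higher in brown than in white cells on both days. At day 4, 32 of 59 genes passed the test as higher in brown cells and 0 as lower, with 0 lower at an unadjusted p under 0.05 as well, where 11.7% of all 6281 genes tested passed as higher and 12.8% as lower (limma, two-sided, Benjamini-Hochberg adjusted p under 0.05 over all probe sets). At day 7, 36 of 59 passed as higher and 0 as lower, again with 0 at an unadjusted p under 0.05, where 13.2% of all genes passed as higher and 12.3% as lower. The median log2 difference of the 59 genes, brown minus white, was 0.48 at day 4 and 0.59 at day 7, and that of all genes was 0.01 and 0.0017. Whatever their p, 54 of the 59 differences were positive on each day, against 51.5% and 50.2% of all genes. At day 4, 3 of 59 genes had every brown array above every white array, a share near the 3.63% of all genes. For 24 genes every brown array at day 7 lay above every white array at day 7, which held for 8.88% of all genes. Called higher on both days were 30 of 59 genes, against 7.5% of all genes. They made up 93.8% of the day 4 calls and 83.3% of the day 7 calls. Over all genes tested 471 were called higher on both days, out of 733 at day 4 and 827 at day 7. The highest of the 4 group means was that of brown day 7 for 48 of the 59 genes, as it was for 22.1% of all genes.

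**Figure D1:**
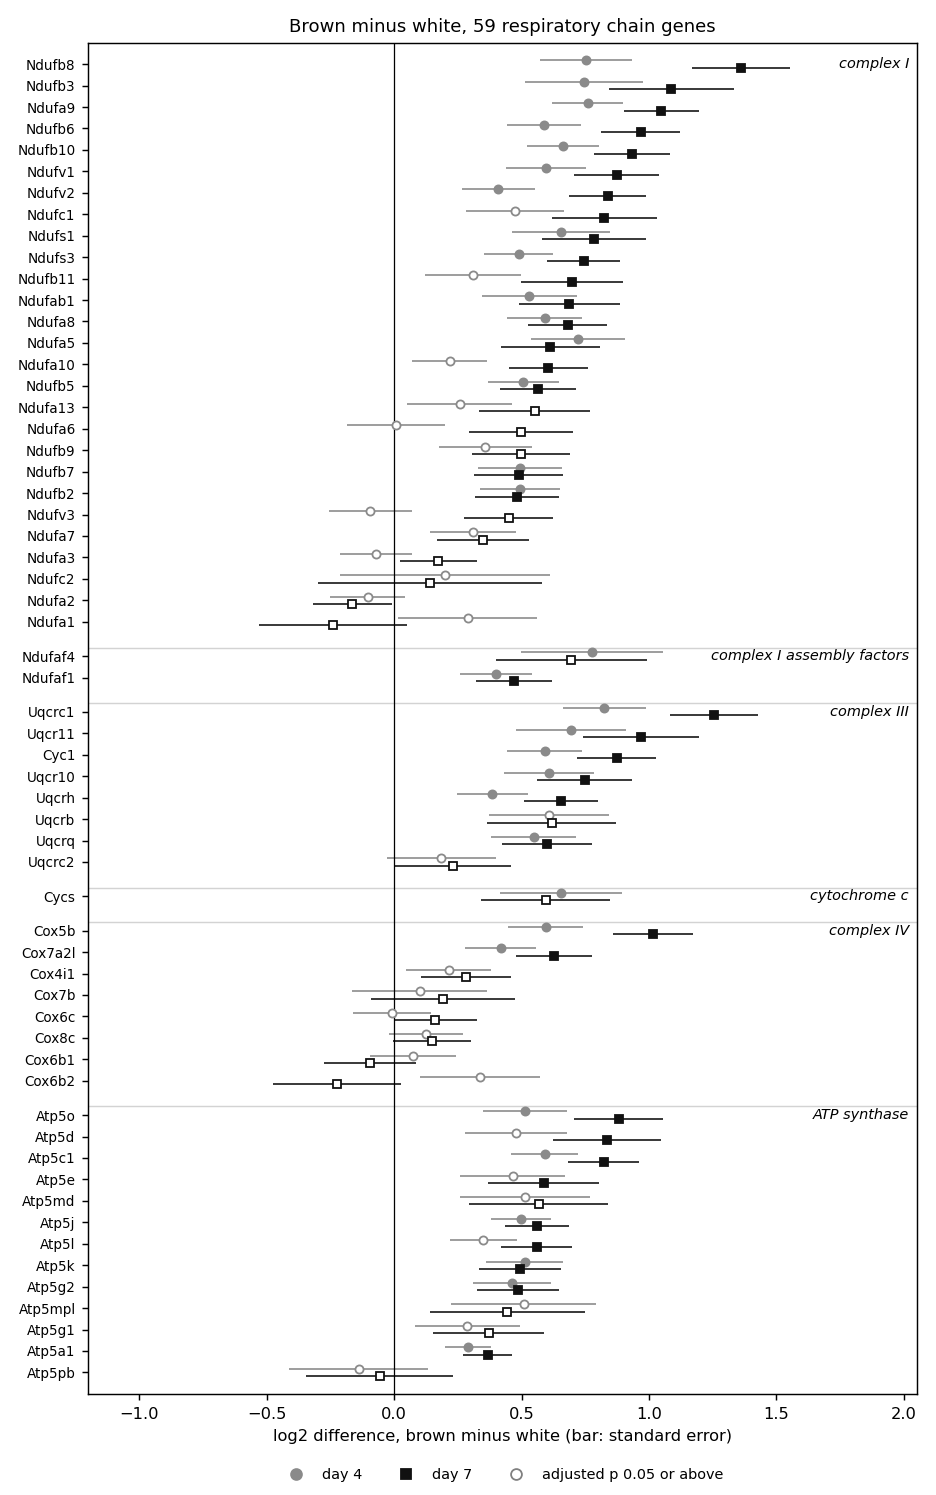
Log2 difference in signal, brown minus white, of each of the 59 genes at day 4 (grey circles) and day 7 (black squares), with the standard error of the fit as a bar; filled symbols have an adjusted p under 0.05. Filled symbols, 32 at day 4 and 36 at day 7, all lie to the right of 0, and complex IV holds 2 of them on each day.

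Without brown day 4 array 06 the day 4 count was 14, and without brown day 4 array 05 it was 20. The share of all probe sets called is not given here for these 2 fits. Whichever array was left out, 13 genes kept their day 4 call and 29 kept their day 7 call. With that Gapdh ratio added to the fit, the day 7 median was 0.69 and 56 of 59 differences were positive, but 8 genes were called, where 3.26% of all probe sets were: Ndufb10, Ndufb6, Ndufb3, Ndufb8, Ndufa9, Ndufa5, Uqcrc1 and Cox5b. Muscle and endothelial signals were higher in the same brown arrays, and macrophage signals lower; their part in the difference was not tested.

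A level per array was made for each complex as the mean of its genes' log2 signals, each gene centred on its own mean over the 24 arrays. For complex I it was 0.17 ± 0.23, 0.44 ± 0.21, -0.25 ± 0.19 and -0.18 ± 0.15 in brown cells at days 4 and 7 and then in white cells at days 4 and 7 (SD), the order kept for the next complexes. For complex III it was 0.13 ± 0.28, 0.66 ± 0.25, -0.43 ± 0.21 and -0.088 ± 0.279. For complex IV it was 0.056 ± 0.191, 0.25 ± 0.15, -0.18 ± 0.14 and -0.018 ± 0.090. For ATP synthase it was 0.20 ± 0.16, 0.35 ± 0.16, -0.21 ± 0.19 and -0.18 ± 0.20. Brown day 7 had the highest mean in all 4 complexes and complex III the widest span. Brown and white arrays did not overlap for complex III and ATP synthase on either day, nor for complex I at day 7. They overlapped for complex I at day 4 and for complex IV on both days. In bulk RNA, fewer cells rich in mitochondria and less of these RNAs per cell cannot be told apart.

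**Figure D2:**
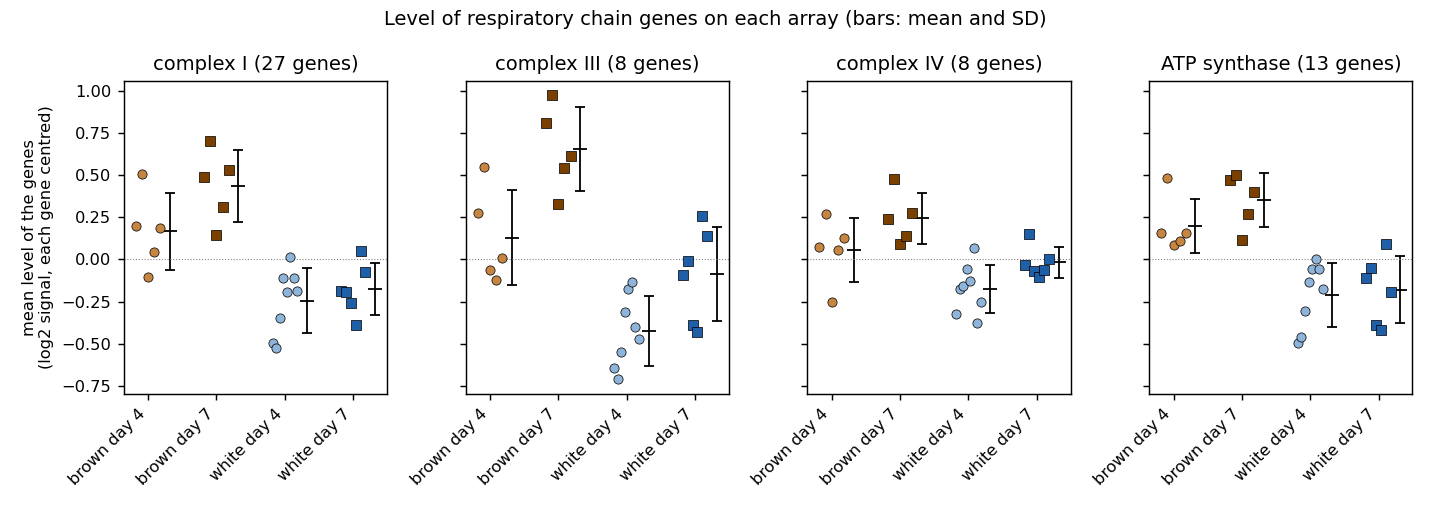
Mean level of the genes of each complex on each array (log2 signal, each gene centred on its mean over 24 arrays) in the 4 groups; points are arrays and bars give the mean and SD. In all 4 panels the brown day 7 mean is the highest, at 0.44, 0.66, 0.25 and 0.35 from left to right.

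The gene with the largest difference at day 7, Ndufb8, belongs to complex I. Of 27 genes tested, 15 were higher in brown cells at day 4 and 18 at day 7. Ndufb8 encodes an accessory subunit of the membrane arm. Its signals were 2423, 2841, 1939, 2092 and 3076 on the brown day 4 arrays and 3026, 3253, 2029, 2435 and 2989 on the brown day 7 arrays; white arrays ran from 1024 to 2107 (median 1375) at day 4 and from 842 to 1424 (median 1056) at day 7. At day 7 the cell types did not overlap, and at day 4 they did. The log2 difference was 0.75 ± 0.18 at day 4 (adjusted p = 0.00335) and 1.36 ± 0.19 at day 7 (adjusted p = 8.09e-06), a 2.57-fold difference; from here on ± gives the fit's standard error.

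Ndufb3, a small subunit of the same arm, had signals of 916, 1029, 531, 583 and 522 at brown day 4, and 1349, 1443, 806, 918 and 1249 at brown day 7. White arrays ran from 275 to 573 (median 412) at day 4 and from 377 to 1096 (median 457) at day 7. White day 7 array 43, at 1096, lay within the brown range, while the other white day 7 arrays stayed below every brown day 7 array. The differences were 0.74 ± 0.23 at day 4 (adjusted p = 0.0205) and 1.09 ± 0.25 at day 7 (adjusted p = 0.00176). Ndufa9, which sits at the joint of the membrane and matrix arms, differed by 0.76 ± 0.14 and 1.05 ± 0.15, with no overlap of the cell types on either day. Ndufb6 differed by 0.97 ± 0.16 at day 7 and Ndufa5, in the matrix arm, by 0.72 ± 0.18 at day 4. Core subunits followed. Ndufv1, which holds the flavin that receives electrons from NADH, differed by 0.87 ± 0.17 at day 7, and Ndufs1 and Ndufs3 by 0.78 ± 0.20 and 0.74 ± 0.14. The other complex I genes called on both days were Ndufb10, Ndufa8, Ndufv2, Ndufb2, Ndufb7, Ndufb5 and Ndufab1, and those called at day 7 only were Ndufc1, Ndufa10 and Ndufb11.

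Ndufab1, the mitochondrial acyl carrier protein, also serves fatty acid synthesis inside mitochondria. It gave 1582, 1813, 1007, 1426 and 1379 at brown day 4 and 2171, 2157, 1395, 1732 and 2184 at brown day 7, against 759 to 1592 (median 849) and 771 to 1572 (median 1229) in white cells. The cell types overlapped on both days, and the differences were 0.53 ± 0.19 (adjusted p = 0.04) and 0.69 ± 0.20 (adjusted p = 0.0116). Among the 9 complex I genes not called at day 7, Ndufa1 and Ndufa2 had negative differences, of -0.24 ± 0.29 and -0.16 ± 0.16. Ndufb5 was the complex I gene with the highest mean signal, between 2036 (white day 4) and 4018 (brown day 7) as group geometric means.

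The assembly factors Ndufaf1 and Ndufaf4 help to build complex I and are not part of it. Ndufaf1 gave 103, 113, 91.9, 105 and 98.3 at brown day 4 and 146, 173, 103, 119 and 135 at brown day 7; white arrays ran from 64.8 to 104.5 (median 75.3) and from 81.1 to 113 (median 94.1). It was higher in brown cells by 0.40 ± 0.14 at day 4 (adjusted p = 0.0412) and by 0.47 ± 0.15 at day 7 (adjusted p = 0.0221). Ndufaf4 was dimmer: 58.97, 39.3, 44.9, 47.5 and 33.6 at brown day 4, 72.7, 76.2, 78.6, 94.3 and 44.9 at brown day 7, 11.8 to 42.03 (median 30.1) at white day 4 and 30.9 to 64.7 (median 44.5) at white day 7. Its difference passed at day 4 (0.78 ± 0.28, adjusted p = 0.045) and not at day 7 (0.70 ± 0.30, adjusted p = 0.087). Both genes overlapped between the cell types on both days.

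Of the 8 complex III genes, 6 were higher in brown cells on each day, and Uqcrb and Uqcrc2 were not called on either. Uqcrb differed by 0.61 ± 0.24 at day 4 (adjusted p = 0.0649) and by 0.62 ± 0.25 at day 7 (adjusted p = 0.0731), with no overlap at day 7. Uqcrc1, one of the pair of large core proteins on the matrix side, gave 2439, 2833, 2018, 2037 and 2951 at brown day 4 and 3333, 3630, 2143, 2540 and 2545 at brown day 7. White arrays ran from 1072 to 1826 (median 1353) at day 4 and from 901 to 1463 (median 1171) at day 7, so that the cell types did not overlap on either day. The differences were 0.82 ± 0.16 (adjusted p = 0.00053) and 1.25 ± 0.17 (adjusted p = 5.21e-06). Uqcrc2, the other core protein, gave 961, 1221, 708, 488 and 581 at brown day 4 and 1682, 2081, 1342, 1344 and 1418 at brown day 7, beside 391 to 903 (median 738) and 949 to 1616 (median 1374) in white cells. Its brown and white arrays overlapped on both days, with differences of 0.19 ± 0.21 (adjusted p = 0.584) and 0.23 ± 0.23 (adjusted p = 0.503). So Uqcrc1 was called by cell type and not by day, and Uqcrc2 by day and not by cell type, though the contrast between these 2 genes was not tested.

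Cyc1, the cytochrome c1 that passes electrons on to cytochrome c, had the highest mean signal of the complex: 4836, 5673, 4129, 4147 and 5300 at brown day 4 and 6332, 6977, 4668, 5356 and 6006 at brown day 7. White arrays ran from 2399 to 4214 (median 3100) and from 2451 to 4033 (median 3154). Its differences were 0.59 ± 0.15 (adjusted p = 0.00409) and 0.87 ± 0.15 (adjusted p = 0.000156), with no overlap at day 7. Uqcr11 and Uqcr10, small subunits, differed by 0.97 ± 0.23 and 0.75 ± 0.19 at day 7, and Uqcrh and Uqcrq were also called on both days. Cycs, the mobile electron carrier cytochrome c, gave 185, 194, 135, 150 and 92.7 at brown day 4 and 222, 208, 197, 214 and 287 at brown day 7, against 37.3 to 138 (median 111) and 122 to 177 (median 149) in white cells. At day 7 all brown arrays lay above all white arrays, yet its difference of 0.59 ± 0.25 did not pass (adjusted p = 0.0874); at day 4 the groups overlapped and 0.66 ± 0.24 passed (adjusted p = 0.0473). Without white day 4 arrays 45 and 51, the day 4 difference of Cycs was 0.36 (adjusted p = 0.133).

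Complex IV showed the fewest calls of the 4 complexes, without the Cox isoforms that the naming rule left out, given below. Cox5b and Cox7a2l were higher in brown cells on both days, and 6 of 8 genes were not called on either. Over all genes 11.7% were higher at day 4 and 13.2% at day 7. Cox5b, a subunit on the matrix face, gave 2139, 2556, 1585, 1834 and 2106 at brown day 4 and 2710, 3373, 1966, 2347 and 2602 at brown day 7. White arrays ran from 960 to 1715 (median 1380) and from 1072 to 1600 (median 1244), with no overlap at day 7. The differences were 0.59 ± 0.15 (adjusted p = 0.00453) and 1.02 ± 0.16 (adjusted p = 2.95e-05). Cox7a2l is a relative of the Cox7a subunits that joins complexes III and IV into supercomplexes. It gave 917, 1121, 870, 1012 and 1024 at brown day 4, 967, 980, 826, 907 and 893 at brown day 7, 526.1 to 1106 (median 690) at white day 4 and 491 to 704 (median 589) at white day 7. The cell types did not overlap at day 7, and the differences were 0.42 ± 0.14 (adjusted p = 0.0308) and 0.63 ± 0.15 (adjusted p = 0.00261).

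Cox4i1, the widely used isoform of the largest nuclear-encoded subunit, gave 195, 167, 125, 180 and 265 at brown day 4 and 213, 272, 171, 191 and 285 at brown day 7, against 126 to 212 (median 149) and 162 to 232 (median 177) in white cells. The groups overlapped on both days, and the differences of 0.21 ± 0.17 and 0.28 ± 0.18 did not pass (adjusted p = 0.389 and 0.263). Cox6c, the brightest gene of the complex, had group means of 2686, 3656, 2699 and 3270 in brown cells at days 4 and 7 and white cells at days 4 and 7, with a brown minus white difference of 0.16 ± 0.16 at day 7. Its neighbours in the complex, Cox6b1, Cox7b, Cox6b2 and Cox8c, the last pair being testis isoforms, differed by -0.22 to 0.19 at day 7 with adjusted p from 0.526 to 0.756. Of the Cox isoforms that the naming rule left out, 3 of 4 tested were called higher in brown cells at day 4 and 4 of 4 at day 7.

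ATP synthase genes were higher in brown cells for 6 of 13 genes at day 4 and 9 of 13 at day 7. Atp5o, which joins the catalytic head to the outer stalk, gave 2568, 2595, 2179, 2260 and 3122 at brown day 4 and 2722, 2602, 1856, 2048 and 2686 at brown day 7. White arrays ran from 1231 to 2309 (median 1835) and from 935 to 1646 (median 1353), with no overlap at day 7. The differences were 0.51 ± 0.17 (adjusted p = 0.0254) and 0.88 ± 0.18 (adjusted p = 0.000543). Atp5d, a subunit of the rotating stalk, gave 488, 623, 416, 509 and 581 at brown day 4 and 665, 646, 473, 586 and 618 at brown day 7; white arrays ran from 228 to 535 (median 409) and from 226 to 457 (median 349). Its difference passed at day 7 (0.84 ± 0.21, adjusted p = 0.00468), where the groups did not overlap, and not at day 4 (0.48 ± 0.20, adjusted p = 0.0859). Atp5c1, in the same stalk, differed by 0.59 ± 0.13 and 0.82 ± 0.14. Atp5a1, Atp5j, Atp5k and Atp5g2 were called on both days, and Atp5l and Atp5e at day 7. Atp5md had the highest mean signal, with group means from 2473 (white day 4) to 4872 (brown day 7), and was called on neither day.

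The c subunit forms the membrane ring whose turning drives the enzyme, and several genes encode the same mature protein. Atp5g1 was dim: 52.9, 60.2, 52.5, 45.2 and 63.6 at brown day 4, 56.3, 97.1, 56.4, 45.9 and 36.5 at brown day 7, 36.4 to 60.9 (median 43.3) at white day 4 and 30.7 to 58.0 (median 43.5) at white day 7. All 4 groups overlapped, and the differences of 0.29 ± 0.21 and 0.37 ± 0.22 did not pass (adjusted p = 0.342 and 0.23). Atp5g2 gave 366, 474, 350, 447 and 506 at brown day 4 and 329, 360, 335, 317 and 415 at brown day 7, against 229 to 457 (median 300) and 225 to 294 (median 247) in white cells. It was higher in brown cells by 0.46 ± 0.15 (adjusted p = 0.0285) and by 0.49 ± 0.16 (adjusted p = 0.0283), with no overlap at day 7.

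**Figure D3:**
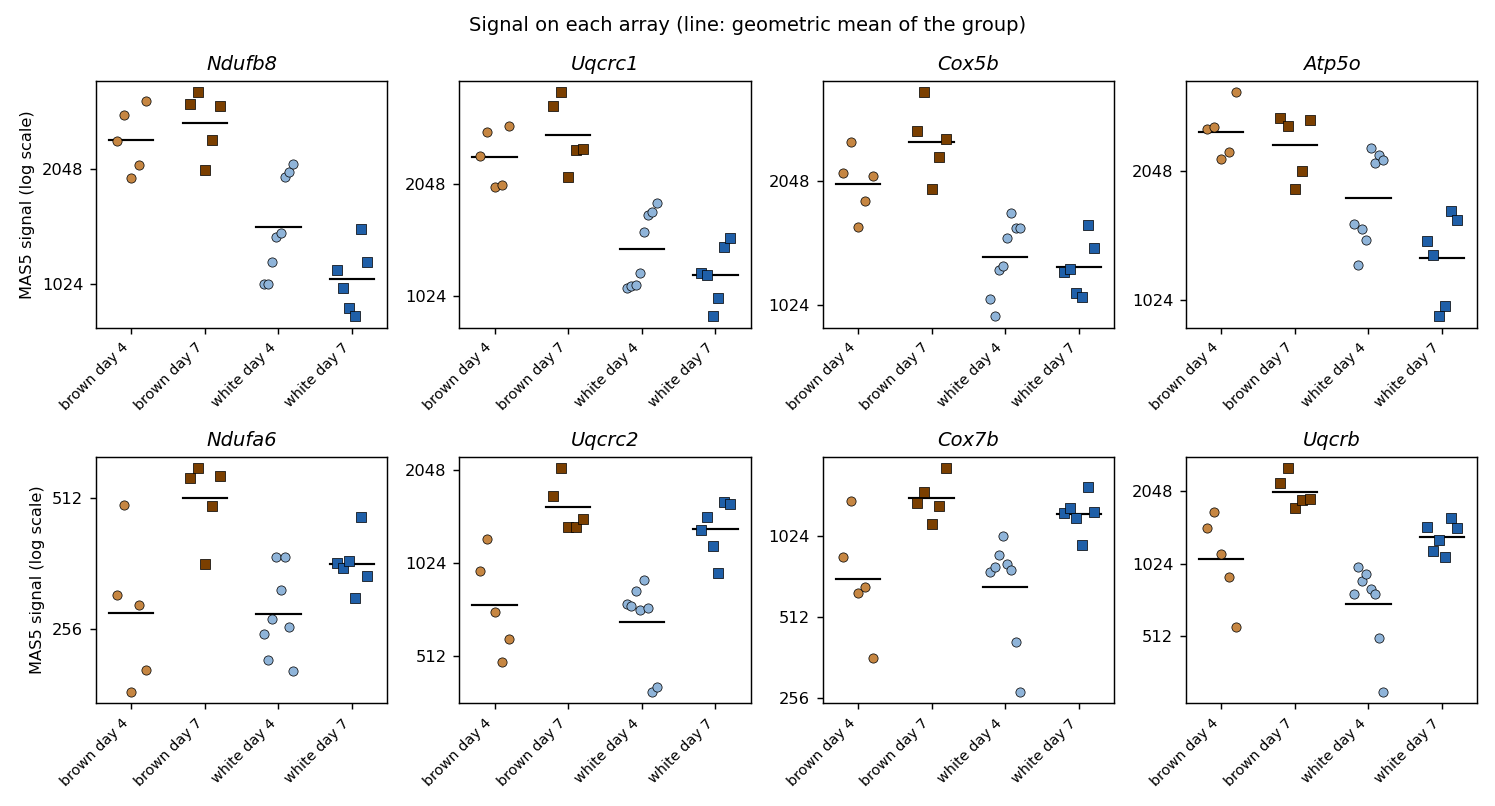
Array signals (log scale) of 8 genes in the 4 groups; each point is 1 array and lines are geometric means. In the upper row (Ndufb8, Uqcrc1, Cox5b, Atp5o) all brown day 7 arrays lie above all white day 7 arrays, and in the lower row (Ndufa6, Uqcrc2, Cox7b, Uqcrb) the day 7 means lie above the day 4 means of the same cell type.

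Promoter sequences are shown because genes of several complexes were higher in brown cells together, and because the factors NRF1, GABP (of the ETS family), YY1 and the estrogen-related receptors are known to bind the promoters of respiratory genes. The windows ran from 250 bases before to 50 after a start (RefSeq, GRCm38.p6), and 47 of the 59 genes were in the table used. Both strands were searched for exact matches. The NRF1 motif was found for 9 of 47 genes (19.1%, against 5.19% of all genes in the table and 11.7% of the genes tested on the arrays). CCGGAAG (ETS) was found for 12 (25.5%, against 9.93% and 19.8%), and AAGATGGC (YY1) for 6 (12.8%, against 3.19% and 5.26%). TNAAGGTCA (estrogen-related receptors) was found for 0 of 47, against 1.43% and 0.894%. A match describes letters only. At least 1 of the 4 motifs was found for 25 of 47 genes (53.2%, against 17.7% and 32.8%). The 200 bases before the start of 4 genes called higher in brown cells on both days read as follows, all from the minus strand, with the matches in capitals. These 4 were picked from genes that hold a match. Ndufa5 has another start in the table, whose 200 bases at chr6:24527527-24527726 hold the same NRF1 letters and are not printed. Atp5c1 at chr2:10080433-10080632 and Ndufa5 at chr6:24527691-24527890 hold the NRF1 letters, Uqcr11 at chr10:80406822-80407021 the ETS letters, and Atp5j at chr16:84834977-84835176 the YY1 and then the ETS letters.
Atp5c1: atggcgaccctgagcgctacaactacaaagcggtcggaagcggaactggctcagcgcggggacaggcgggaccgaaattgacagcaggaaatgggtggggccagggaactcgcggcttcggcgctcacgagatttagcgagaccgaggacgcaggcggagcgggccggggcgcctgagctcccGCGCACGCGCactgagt
Ndufa5: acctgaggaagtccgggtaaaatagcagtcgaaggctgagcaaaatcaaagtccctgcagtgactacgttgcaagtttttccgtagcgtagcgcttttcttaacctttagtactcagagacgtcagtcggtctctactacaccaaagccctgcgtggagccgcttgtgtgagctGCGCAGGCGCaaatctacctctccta
Uqcr11: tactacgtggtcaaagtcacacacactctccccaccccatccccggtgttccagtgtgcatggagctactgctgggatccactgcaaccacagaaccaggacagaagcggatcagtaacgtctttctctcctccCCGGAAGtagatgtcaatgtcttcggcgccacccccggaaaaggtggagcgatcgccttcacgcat
Atp5j: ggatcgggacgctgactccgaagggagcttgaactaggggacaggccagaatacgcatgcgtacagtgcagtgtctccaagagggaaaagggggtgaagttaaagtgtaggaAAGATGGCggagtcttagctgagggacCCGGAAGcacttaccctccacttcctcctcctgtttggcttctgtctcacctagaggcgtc

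Between day 4 and day 7 fewer of these genes changed. In brown cells 8 of 59 rose and 0 fell, where 6.48% of all genes tested rose and 6.5% fell, and 50 of 59 differences were positive, against 52% of all genes. The median difference was 0.28 on the log2 scale, against 0.02 for all genes. The genes that rose were Uqcrc2 (1.05 ± 0.24, adjusted p = 0.00391), Cox7b (1.0 ± 0.30, adjusted p = 0.0251), Uqcrb (0.93 ± 0.26, adjusted p = 0.0188), Ndufa6 (0.88 ± 0.21, adjusted p = 0.00695), Ndufs1 (0.68 ± 0.21, adjusted p = 0.0335), Ndufc1 (0.67 ± 0.21, adjusted p = 0.0398), Ndufb5 (0.47 ± 0.16, adjusted p = 0.0449) and Uqcrh (0.47 ± 0.15, adjusted p = 0.0424). They belong to complexes I, III and IV. Of the ATP synthase genes, 0 of 13 were called by limma in brown cells, with 1 at an unadjusted p under 0.05. With 6.48% of all genes rising, 0 of 13 does not set ATP synthase apart. For 3 of 59 genes, a share near the 4.44% of all genes, the lowest day 7 array was above the highest day 4 array. They were Uqcrc2, Uqcrb and, without passing, Cycs (0.61 ± 0.26, adjusted p = 0.141).

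Uqcrb, a subunit near the ubiquinone site of complex III, gave 1439, 1675, 1127, 904 and 562 at brown day 4 and 2207, 2551, 1748, 1873 and 1891 at brown day 7. Cox7b, a small membrane subunit of complex IV, gave 855, 1390, 628, 667 and 361 at brown day 4 and 1366, 1504, 1142, 1332 and 1841 at brown day 7. Day 4 array 06 of Cox7b lay above day 7 arrays 07, 11 and 12. Ndufa6, an accessory subunit of the matrix arm, gave 306, 492.6, 183, 290 and 206 at brown day 4 and 567, 599, 361, 490 and 575 at brown day 7, again with array 06 inside the day 7 range. Brown day 4 array 06 was the highest of its group for all 3 genes, and array 19 the lowest for Uqcrb and Cox7b.

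The brown count of 8 was 2 without brown day 4 array 19 or without brown day 7 array 08, 3 without brown day 4 array 09 or 10, 4 without brown day 7 array 07 or 22, 5 without brown day 7 array 12 and 12 without brown day 4 array 06; Uqcrc2 and Ndufa6 kept their calls throughout. With runs of adjacent array numbers as a block the count was 20. The share of all probe sets called is not given here for these fits. Of the 59 differences 51 and 52 were positive in runs 05 to 08 and 09 to 12. The last run, arrays 19 and 22, held 1 array per day and is not adjacent in number, with 41 positive. Summed muscle signals were lower at brown day 7 than at day 4, summed endothelial signals were higher, and the Gapdh ratio was alike. With that ratio added to the fit the count was again 8, of the same genes, where 12.4% of all probe sets were called.

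In white cells 7 of 59 genes rose and 1 fell, where 9.04% of all genes rose and 10.4% fell. The share that rose was thus near that of all genes. The median difference was 0.08 against 0.01 for all genes, and 36 of 59 were positive, against 51.8%. Uqcrc2 (1.0 ± 0.20, adjusted p = 0.00131), Uqcrb (0.92 ± 0.22, adjusted p = 0.00548) and Cox7b (0.91 ± 0.25, adjusted p = 0.013) led again, followed by Ndufaf4 (0.77 ± 0.26), Cycs (0.67 ± 0.23), Ndufs1 (0.56 ± 0.18) and Ndufb5 (0.42 ± 0.13). Atp5o fell by 0.47 (SE 0.16, adjusted p = 0.0376), and its 2 groups overlapped. Uqcrb ran from 301 to 992 (median 788) at white day 4 and from 1095 to 1590 (median 1362) at white day 7, and Cox7b from 270 to 1024 (median 777) and from 949 to 1559 (median 1258). The days did not overlap for 2 of 59 genes, Uqcrc2 and Uqcrb, a share near the 2.42% of all genes (higher at day 7). Uqcrc2, Uqcrb, Cox7b, Ndufs1 and Ndufb5 rose in both cell types, which is 5 of 59 genes, where 3.34% of all genes rose in both. These genes made up 62.5% of the brown and 71.4% of the white risers. Those are shares of risers and not of all genes, so they cannot be set beside the 3.34%.

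**Figure D4:**
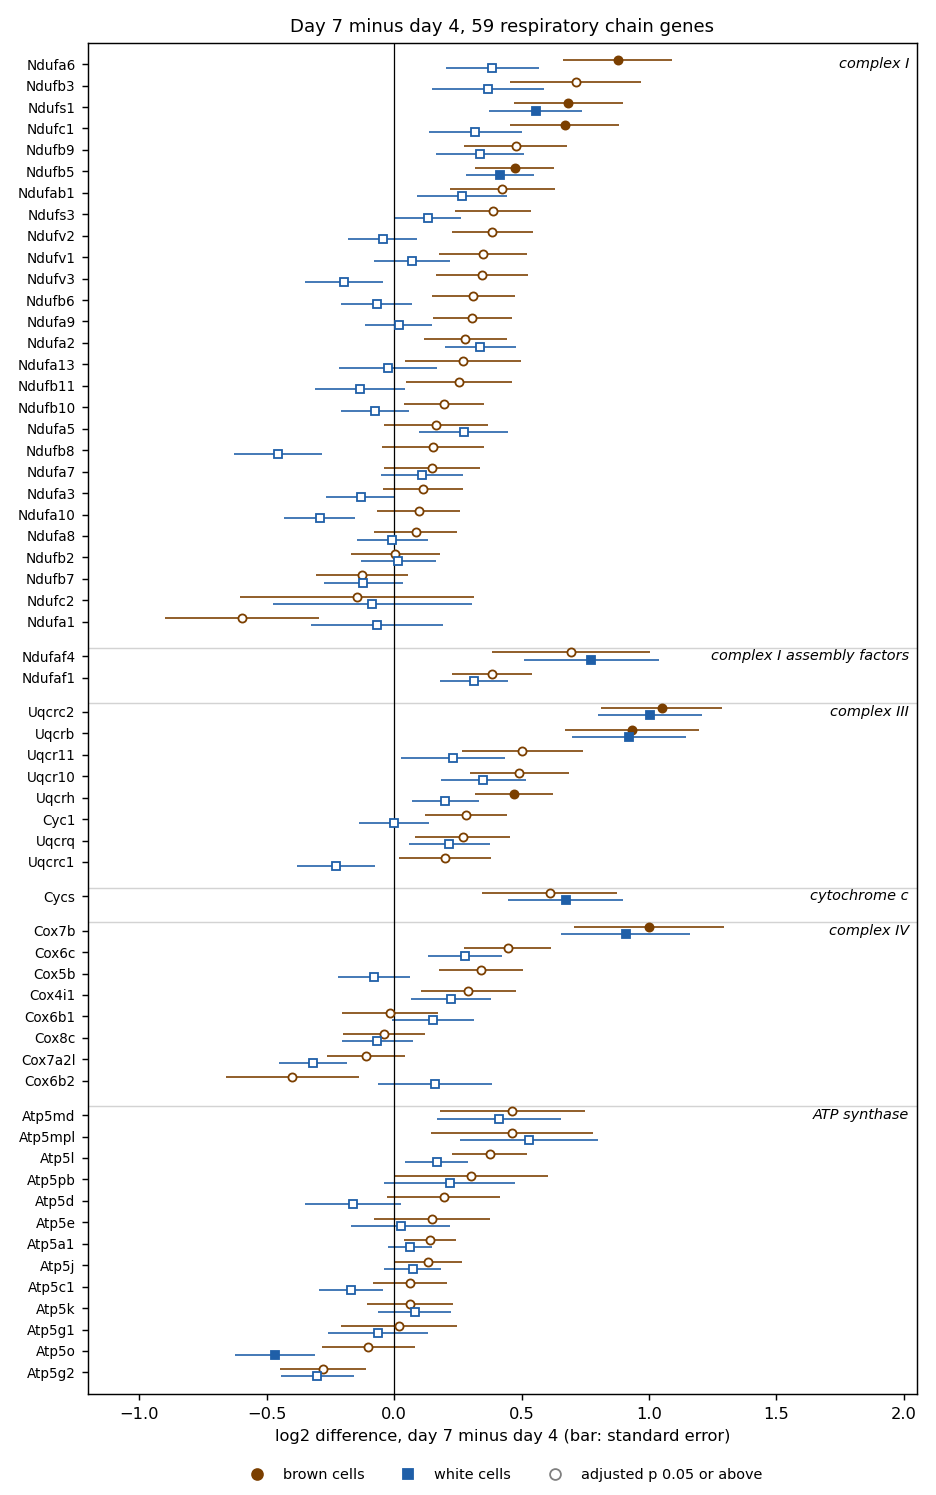
Log2 difference in signal, day 7 minus day 4, of each of the 59 genes in brown cells (brown circles) and white cells (blue squares), with the standard error of the fit as a bar; filled symbols have an adjusted p under 0.05. Filled symbols lie to the right of 0 except Atp5o in white cells. The 13 ATP synthase genes hold no filled brown symbol, where 6.48% of all genes tested rose in brown cells.

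The Gapdh ratio, 0.943 at white day 4 and 1.36 at white day 7, moved with the white comparison. With it as a covariate 0 of 59 genes were called, as were 0.441% of all probe sets, and Uqcrc2 stood at 0.41 (adjusted p = 0.662) and Cox7b at 0.48 (adjusted p = 0.718). Ndufaf4 stood at 0.64 and Atp5o at -0.48, close to its value without the covariate, and neither was called (adjusted p = 0.623 and 0.504). White day 4 arrays 45 and 51 were the lowest of their group for Uqcrc2, Uqcrb and Cox7b. Without them 2 of 59 genes were called, where 12.5% of all probe sets were. These were Uqcrc2 at 0.76 and Uqcrb at 0.64 (adjusted p = 0.00673 and 0.02), and Cox7b stood at 0.58 (adjusted p = 0.0592). The count was 3 without white day 7 array 36, 4 without white day 4 array 42, 45 or 51, and 5 without white day 7 array 40, 43 or 44. For those fits the share of all probe sets called is not given here. Within the 3 runs of adjacent numbers 52, 20 and 34 of the 59 differences were positive.

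The change over time was not shown to differ between the cell types. The difference of the changes, brown minus white, passed for 0 of 59 genes by limma, where 0.191% of all genes passed. At an unadjusted p under 0.05 there were 3, where 7.32% of all genes had one: Ndufb8 (0.61 ± 0.26, adjusted p = 0.548), Ndufv3 (0.54 ± 0.24, adjusted p = 0.551) and Ndufv2 (0.43 ± 0.21, adjusted p = 0.62), all of complex I. Of the 59 differences 47 were positive, against 49.7% of all genes, with a median of 0.13 against -0.0025. The count was 0 under all alternatives run.

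Mitochondrial ribosomal proteins, which translate the subunits encoded in mitochondrial DNA, were higher in brown cells for 36 of 59 genes at day 4 and 35 of 59 at day 7, with medians of 0.51 on both days. Mrps34 differed by 0.99 ± 0.19 and 1.17 ± 0.20, and Mrpl15 by 1.34 ± 0.15 at day 7. Over time their medians were -0.13 in brown and -0.17 in white cells. In brown cells 3 of 59 fell, beside 6.5% of all genes, and in white cells 8 of 59, beside 10.4%, shares near those of all genes; Mrpl54 fell in both (-0.67 ± 0.21 and -0.73 ± 0.18). Among 21 genes of protein import, 10 and 8 were higher in brown cells, led by Timm8a1 at day 4 and Grpel1 at day 7 (1.15 ± 0.22 and 0.90 ± 0.17). Of the other assembly factors of the complexes, 5 and 6 of 12 were higher in brown cells, Uqcc1 of complex III by 1.14 ± 0.26 and Coa3 of complex IV by 1.004 ± 0.149 at day 7.

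Electrons also enter the chain from succinate through complex II and from fatty acid oxidation through the electron transfer flavoprotein. Of 9 such genes, 6 were higher in brown cells at day 4 and 7 at day 7, where Gpd2, the mitochondrial glycerol phosphate dehydrogenase, was lower (-0.98 ± 0.35, adjusted p = 0.0386). The complex II subunits Sdhd and Sdhb differed by 1.51 ± 0.16 and 1.28 ± 0.18 at day 7. Sdha, Etfa and Etfdh rose over time in both cell types, Etfdh by 1.26 ± 0.29 in brown and 0.75 ± 0.25 in white cells. Of 13 regulators of mitochondrial biogenesis, 0 were higher and 1 lower in brown cells at day 4, and 1 higher and 1 lower at day 7. Over all genes 11.7% were higher and 12.8% lower at day 4, and 13.2% and 12.3% at day 7, shares that these counts do not exceed. The receptor Esrra was higher in brown cells at day 7 (0.81 ± 0.22) and the corepressor Nrip1 was lower on both days (-1.24 ± 0.30 and -1.70 ± 0.31). Of 6 carriers and porins, 1 was higher and 1 lower in brown cells on each day, near the shares of all genes. The adenine nucleotide carrier Slc25a5 was higher at day 7 (0.97 ± 0.18) and the porin Vdac2 lower on both days (-0.80 ± 0.17 and -0.77 ± 0.18).

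Where a gene had several probe sets the brightest one tested stood for it, and some dimmer probe sets changed a call or went the other way. At day 4 the second probe set of Cyc1 gave 0.13 (adjusted p = 0.617), against 0.59, and that of Ndufb2 0.40 (adjusted p = 0.086), against 0.49. The second probe set of Atp5c1 fell over time in white cells (-0.47, adjusted p = 0.0297), where the one used gave -0.17 and was not called. For Ndufa3, another probe set was lower in brown cells at day 7 (-0.70, adjusted p = 0.0141), where the one used gave 0.17. For Atp5d, 3 probe sets gave 0.84, 0.51 and 0.35 at day 7 and the dimmest gave -0.35 (adjusted p = 0.285). For Atp5l the dimmer one gave -0.20 at day 7, against 0.56. That of Ndufv2 gave -0.0085 at day 4, against 0.41, and 0.16 at day 7 (adjusted p = 0.445), against 0.84. The dimmer probe set of Atp5g2 gave 0.16 at day 4 and 0.09 at day 7 (adjusted p = 0.8 and 0.892), against 0.46 and 0.49. That of Atp5g1 gave -0.05 and -0.13, against 0.29 and 0.37, and neither probe set was called. The second probe set of Cox4i1 gave -0.50 at day 4 (adjusted p = 0.0872) and -0.28 at day 7 (adjusted p = 0.403), against 0.21 and 0.28. Probe sets with the suffix _f_at, among them those of Uqcrc2, Uqcrb, Cox4i1, Atp5g2 and Ndufb5, can pick up related sequences too. A further 10 probe sets with a fitting name carry several symbols, among them those of Cox7c, Ndufs5, Ndufs6 and Ndufa11, and were not used here.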

How the data were processed

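RNA of 24 samples was measured on Affymetrix U74Av2 arrays, 1 array per sample. The deposited value is a signal intensity per probe set, made by the authors with MAS5, per the submitters' processing notes; version: not given in the sources used here. Each array was scaled to a trimmed mean of 150 (2% trimmed at each end), values under the 20th percentile were raised to it, and log2 was taken. Probe sets above their array's 40th percentile on at least 5 arrays were tested (8397). A linear model with 4 group means was fitted with limma 3.58.1 in R 4.3.3 (moderated variance with a trend), with Benjamini-Hochberg adjustment over all tested probe sets and a threshold of 0.05. The tested probe set of highest mean signal stood for its gene, and ± gives the standard error of the fit unless SD is named. Genes were named from GEO's platform annotation. The model was tested on simulated data.

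Named genes were, in each comparison, complex and direction, up to 4 called genes with the largest difference (others by name), the brightest gene of each complex, genes singled out by role (c subunits, Cox4i1, Cox7a2l, Ndufab1, Cyc1, Cycs), genes whose probe sets differ in sign with 1 called, and genes among the up to 3 largest calls of each other list in each comparison. The members, the other gene lists and the alternatives were chosen with earlier results of these data known. Alternatives covered the floor, the filter, normalization, array weights, the groups fitted, runs of adjacent array numbers, the Gapdh ratio, the mean over a gene's probe sets, and leaving out arrays. The number of arrays limits the precision. Promoter sequences are from RefSeq (GRCm38.p6).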

Additional observations from a re-analysis of the deposited data

Results flagged for a closer look

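Of 88 groups of values looked at, 3 held an array that stood apart from the rest of its group by Dixon's criterion, and chance gives about 1 in 20 such groups. Cycs on brown day 7 array 22 had a signal of 287.4, where the other 4 arrays ran from 196.7 to 221.8. Ndufb3 on white day 7 array 43 had a signal of 1096, where the other 5 ran from 377.5 to 617.6. The mean level of the ATP synthase genes on brown day 4 array 06 was 0.4839, where the other 4 ran from 0.08892 to 0.1587.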

How the results depend on the processing

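No called difference of a named gene, and no median over the 59 genes, changed direction under the alternatives run; some differences that were not called did, such as Cox7a2l over time in white cells (-0.318, and 0.104 with the Gapdh ratio in the fit). The brown day 7 against day 4 count of 8 genes became 3 with no filter, 5 with arrays centred on the median, 5 with only the groups compared and 20 with runs of adjacent array numbers as a block, and ran from 2 to 12 as each array was left out. The white count of 8 became 4 with no filter, 5 with only the groups compared, 2 without day 4 arrays 45 and 51 and 0 with the Gapdh ratio as a covariate, and ran from 3 to 10. The brown against white count of 32 at day 4 became 21 with only the groups compared and ran from 14 to 32; that of 36 at day 7 became 8 with the Gapdh covariate and ran from 29 to 39. The count for the difference of the changes ran from 0 to 0. Without white day 4 arrays 45 and 51, 12.5% of all probe sets were called in the white comparison. With the Gapdh covariate 0.441% were called in the white comparison and 3.26% between the cell types at day 7. For the other counts listed here the share of all probe sets called is not given. It is thus not shown that those moves are particular to these genes. As each array was left out, the median difference ran from 0.219 to 0.386 (brown over time), 0.0373 to 0.133 (white over time), 0.378 to 0.516 (cell types, day 4), 0.528 to 0.643 (day 7) and 0.0696 to 0.246 (difference of changes). The cause of these moves was not tested. The groups compared share no array numbers, so the blocked fit of the day comparisons used runs of adjacent numbers, whose meaning the labels do not give. Brown arrays 19 and 22, which are not adjacent, were taken as 1 of these runs.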
